A study of Homo sapiens with 8 samples.

Results

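The genes of the DNA replication machinery were followed in RNA sequencing of RPMI-8402, a human T-cell acute lymphoblastic leukaemia line. The set was chosen by symbol from the count table and holds 44 genes of 61228 symbols: the origin recognition complex, licensing factors, the replicative helicase and its activators, the replicative polymerases, the sliding clamp with its loader, and enzymes of nucleotide supply. No measured value entered that choice, although earlier results of these data were known when the genes and lists were chosen. The 8 libraries came from 8 untreated clones of the line, each a single clone: 4 labelled as knockouts of the transcription factor NKX2-1 (C12, C15, S04 and S36) and 4 labelled wild type (WT10, WT13, WT28 and WT30). The kind of edit and the meaning of the letters C and S were not stated in any source used. The study's title sets NKX2-1 beside RUNX1 and protection from DNA damage, and the comparison asked here is whether the replication genes differed between knockout and wild-type clones.

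Before a cell can copy its DNA, the origin recognition complex and CDC6 bind origins and, with CDT1, load the ring of MCM proteins around DNA. In S phase the kinase CDC7 with DBF4, together with CDC45, the GINS complex and MCM10, turns that ring into an active helicase. DNA polymerase alpha with primase then lays primers, and polymerases epsilon and delta extend them on the PCNA clamp that RFC loads. Many of these genes are transcribed in late G1 by E2F factors, so in dividing leukaemia cells they are usually expressed together.

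The shallowest library, C15, held 2730285 counts and the deepest, C12, held 25423215, with 12344549 or more in every clone other than C15. Expression is given as CPM, counts per 1e6 of the scaled library. In C15 a single count was worth 0.403 CPM, against 0.0385 in C12, so a count of 0 allows up to 1.21 CPM in C15 and 0.116 in C12 (3 counts, counting error only). Mitochondrial transcripts took 21.2% of the counts in C15 and 12.9% to 18.5% in the other clones. NKX2-1 itself had 71.9, 11.3, 83.4 and 33.3 CPM in C12, C15, S04 and S36 and between 53.5 and 63.1 in the wild-type clones. Its RNA was thus not lower in every knockout clone, and since an edit can leave the transcript in place these values do not check the labels. Of 8 markers of T-cell leukaemia, 7 reached 1 CPM in every clone and PTCRA did not; their summed level was 1642 to 2142 CPM in knockout and 1628 to 2014 in wild-type clones. Of 10 markers of other cell types, COL1A2, LYZ and HBA1 were at 0 in every clone, and the sum was 12.8 to 37.7 CPM in knockout against 19.99 to 27.6 in wild-type clones.

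The replication genes together took 0.496% of the counts in C15 and up to 0.614% in S36; wild-type clones ranged from 0.538% to 0.579%. Levels between genes were compared as CPM per kilobase of principal transcript. In wild type the highest were DUT, which removes dUTP, at 218 ± 15.7 (SD, n = 4), and RRM1, the large subunit of ribonucleotide reductase, at 185 ± 6.28. Next came MCM3 at 138 ± 10.7, MCM7 at 133 ± 3.72, GMNN, the inhibitor of CDT1, at 132 ± 12.2, and PCNA at 124 ± 16.0. These 4 neighbours in the order did not differ beyond their spread. The lowest tested levels per kilobase, TYMS apart, were ORC3 at 4.28 ± 0.327, ORC4 at 4.51 ± 0.444, PRIM2 at 4.52 ± 0.813 and GINS4 at 5.17 ± 0.633, and these overlapped as well. Subunits of one complex were therefore not counted at equal levels: within GINS, a complex of equal parts, GINS2 stood at 22.1, GINS1 at 14.1, GINS3 at 13.7 and GINS4 at 5.17 CPM per kilobase. Within the clamp loader, RFC1 stood at 111 and RFC2 at 13.0 CPM per kilobase.

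**Figure D1:**
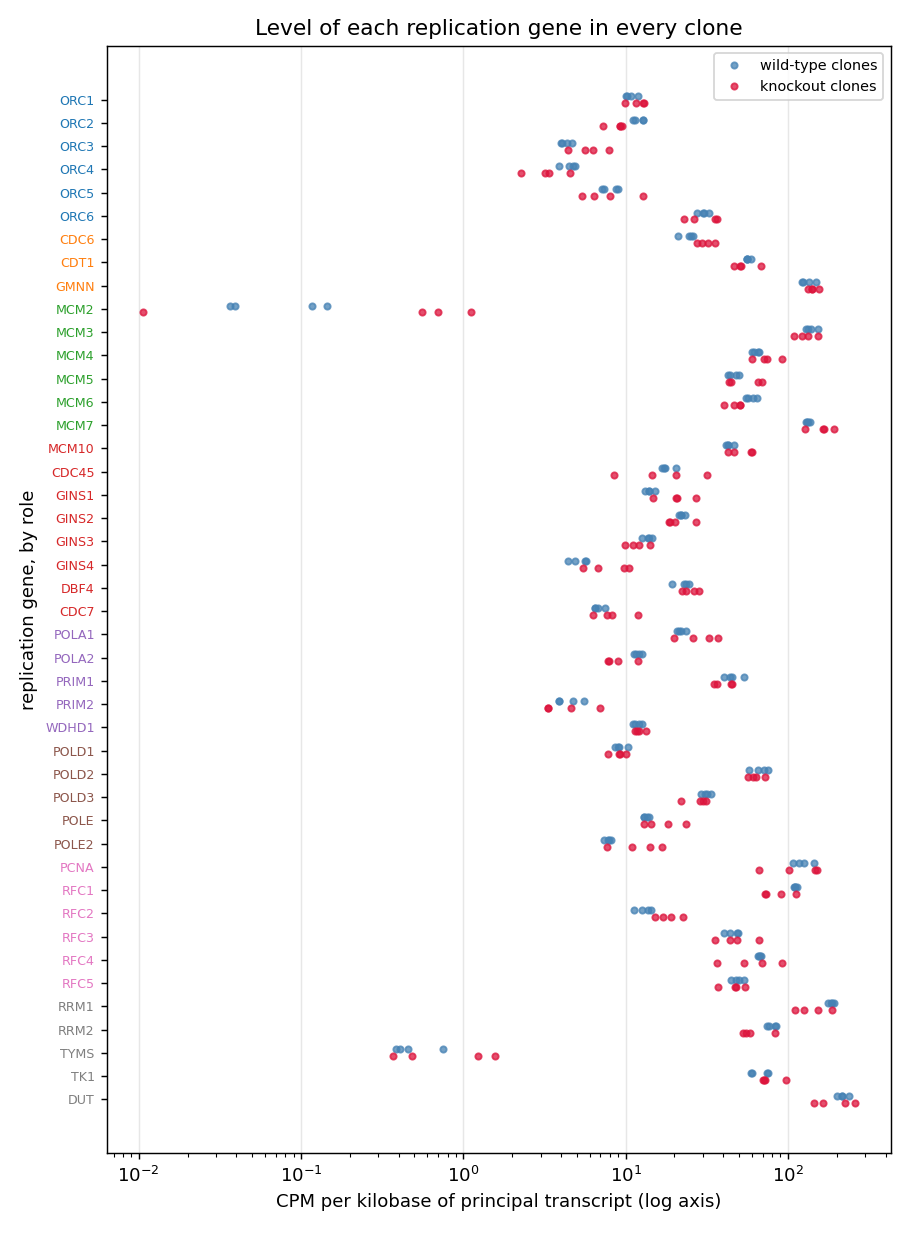
Level of each of the 44 replication genes, as CPM per kilobase of principal transcript on a log axis, with 1 point per clone (blue, wild type; red, knockout) and gene names coloured by role. DUT and RRM1 lie highest, at 218 and 185 in wild type, and MCM2 and TYMS lie far to the left of every other gene.

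MCM2 and TYMS stood apart from the rest. MCM2 encodes a subunit of the helicase ring, yet its row held 1 count in C12, 5 in C15, 42 in S04, 53 in S36 and 8, 10, 3 and 3 in wild type, while MCM3 to MCM7 ran from 151 to 573 CPM over all 8 clones. TYMS, which makes thymidylate, had 16, 2, 43 and 27 counts in C12, C15, S04 and S36, and 12, 13, 16 and 28 in WT10 to WT30. GAPDH, a glycolytic gene looked up after these values were seen, was also low at 12.8 to 27.1 CPM in wild type, where ACTB, the beta-actin gene, had 526 to 700. The gene annotation and strand setting of the deposited counts are not stated in the sources at hand, and the cause of the low rows was not tested, so they are reported as row values and not as transcript levels. MCM2 did not pass the filter on low counts. Pooled over clones, MCM2 had 0.294 CPM in wild type (95% Poisson interval 0.188 to 0.437, counting error only), 0.211 in the C clones (0.0774 to 0.459) and 3.20 in the S clones (2.59 to 3.91). Both S clones and C15, which rested on 5 counts, lay above every wild-type clone, and C12 lay below them all; the pooled C value rests mostly on C12, the deeper of its 2 libraries.

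Promoter windows of RefSeq (GRCh38.p14, 250 bases before to 50 after an annotated start) were found for 40 of the 44 genes, giving 55 windows. MCM4, MCM5, GINS4 and POLD3 had none. An E2F word (TTTGGCGC, TTTCCCGC, TTTGCCGC or TTTCGCGC, on either strand) was present in 20 of the 55 windows (36.4%), in 20 of the 40 genes, against 1164 of all 35116 windows (3.31%). These are matches of letters in a window, not measured binding. The 6 windows below are shown because their genes had the smallest p-values in the clone comparison, or lie on chromosome 2, and hold such a word. Each is a stretch around the word on the strand of the gene, 5′ to 3′, with the E2F words in capitals. GINS1 (chr20:25407638-25407722, plus strand), CDC6 (chr17:40287846-40287928, plus) and POLE2 (chr14:49688172-49688259, minus) carry the same word, read on the other strand in GINS1 and POLE2. MCM6 (chr2:135876482-135876635, minus) carries 2 copies of TTTGGCGCGAAA, in each of which 2 words on opposite strands overlap. ORC3 (chr6:87590083-87590170, plus) and POLA2 (chr11:65261869-65261956, plus) carry other forms.
GINS1: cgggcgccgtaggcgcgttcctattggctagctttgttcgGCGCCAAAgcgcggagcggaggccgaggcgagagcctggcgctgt
POLE2: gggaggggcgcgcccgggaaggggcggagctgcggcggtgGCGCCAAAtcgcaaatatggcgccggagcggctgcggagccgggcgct
CDC6: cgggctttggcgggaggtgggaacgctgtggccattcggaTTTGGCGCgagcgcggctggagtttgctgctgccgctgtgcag
MCM6: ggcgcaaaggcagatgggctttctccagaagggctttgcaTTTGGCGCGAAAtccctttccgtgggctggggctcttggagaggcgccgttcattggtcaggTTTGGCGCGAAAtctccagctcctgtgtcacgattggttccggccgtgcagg
ORC3: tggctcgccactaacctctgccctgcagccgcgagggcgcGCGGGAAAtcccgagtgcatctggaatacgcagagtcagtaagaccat
POLA2: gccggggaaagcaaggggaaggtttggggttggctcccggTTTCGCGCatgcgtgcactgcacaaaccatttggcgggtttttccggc
The word began 5 bases from the start site in GINS1, 7 in CDC6, -5 in POLE2, -12 in ORC3 and -53 in POLA2 (negative, before the start), and the MCM6 words began at -152, -148, -90 and -86.

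The 19 tested genes with an E2F word had a median log2 fold change (knockout over wild type) of 0.11, with 11 above 0 and 8 below, and the 20 tested genes with a window but no word had -0.01, with 10 on each side. Of the other words searched on both strands, CCAAT was in 28 windows (50.9%, against 34.6% of all windows) and the GC box GGGCGG in 40 (72.7%, against 45.0%). TTTGAA, the CHR word of genes expressed late in the cell cycle, was in 3 (5.45%, against 15.2%). The RUNX word TGTGGT was in 6 windows (10.9%, against 13.1%), those of ORC4, MCM2, RFC2, PRIM1, POLE and WDHD1. The NKX2 word CAAGTG was in 3 (5.45%, against 11.5%), those of PRIM1, TYMS and POLD1.

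No replication gene passed the threshold between the 4 knockout and the 4 wild-type clones. With edgeR's quasi-likelihood test and Benjamini-Hochberg adjustment over 14243 genes, 45 genes passed an adjusted p of 0.05 (0.316%), and 0 of the 43 tested replication genes did; their adjusted p-values ran from 0.187 to 0.981. DESeq2 and limma-voom also called 0 of them. At an unadjusted p under 0.05 there were 10 of 43 (23.3%), against 15.5% of all genes: CDC6, ORC3, GINS1, GINS4, POLE2 and RFC2 with higher, and ORC2, ORC4, MCM6 and POLA2 with lower values in knockout clones. The median log2 fold change was 0.048, with 24 above 0 and 19 below, beside 0.02 over all genes, of which 52.2% were above 0. Values ran from -0.46 in ORC4 to 0.93 in TYMS. An absolute value over 0.5 was seen in 6 replication genes (14.0%) and in 24.3% of all genes. In RNA from whole cultures, a smaller share of cells in S phase and less RNA per cell cannot be told apart.

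**Figure D2:**
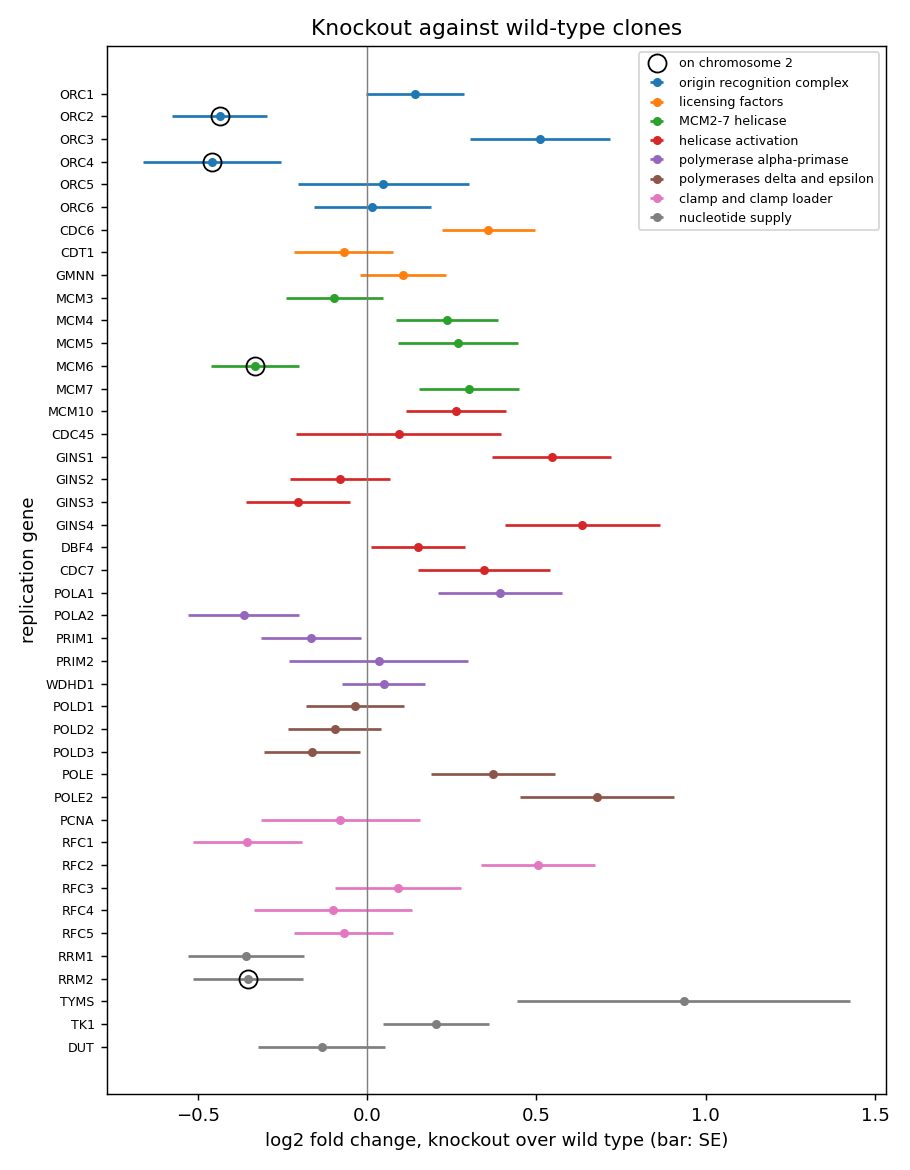
Log2 fold change of knockout over wild-type clones for the 43 tested replication genes, by role, with bars of 1 SE; open circles mark the 4 genes on chromosome 2. Values spread to both sides of 0, from -0.46 to 0.93, and all 4 circled genes lie below 0.

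The knockout and wild-type clones did not overlap for 4 genes: CDC6 and RFC2 were higher in every knockout clone (4.65% of the replication genes, against 4.44% of all genes), and ORC2 and MCM6 were lower in every one (4.65%, against 5.62%). For each of these 4 an exact two-sided permutation test gave p = 0.0286, the smallest that the 70 assignments of 4 against 4 allow. Groups that do not overlap always give that smallest value, so the test adds nothing to the choice of these genes.

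In the origin recognition complex, the 6-subunit marker of origins, 4 genes had log2 fold changes above 0 and 2 below, with a median of 0.03. ORC2 (chromosome 2, 200908973 to 200963680, minus strand, GRCh38) had 39.9, 31.4, 40.05 and 40.8 CPM in C12, C15, S04 and S36, and 55.4, 49.2, 55.2 and 47.6 in WT10, WT13, WT28 and WT30. All knockout clones lay below all wild-type clones, and C15 was the lowest. Clones keep this order in the values that follow. The means were 38.1 ± 4.43 and 51.9 ± 4.02 CPM (SD, n = 4), a log2 fold change of -0.44 (SE 0.14, adjusted p = 0.187 by edgeR). ORC4 (chromosome 2, 147930397 to 148021604) had 22.1, 29.8, 21.1 and 14.9 CPM in the knockout clones and 29.6, 32.4, 25.7 and 31.3 in wild type. Here C15 lay among the wild-type clones while S36 had the lowest value of all, and the log2 fold change was -0.46 (SE 0.20, adjusted p = 0.312 by edgeR).

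ORC3, another subunit of the same complex, went the other way in its values. It had 11.1, 14.1, 19.8 and 15.8 CPM in the knockout clones and 10.9, 11.7, 9.94 and 10.2 in wild type (log2 fold change 0.51, SE 0.21, adjusted p = 0.276 by edgeR). C12 lay within the wild-type range and the other knockout clones above it. ORC6 had 59.8, 42.7, 58.2 and 37.1 CPM in the knockout clones, on both sides of the wild-type values of 49.1, 49.7, 53.0 and 45.0, and its log2 fold change was 0.02. ORC1, the subunit that recruits CDC6, had 31.0 to 40.5 CPM in knockout and 31.3 to 37.1 in wild-type clones, and ORC5 had 10.5 to 25.1 against 14.0 to 17.5.

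CDC6, the factor that joins the origin complex to load the helicase (chromosome 17, 40287633 to 40304657), had 77.7, 100.4, 83.9 and 90.3 CPM in the knockout clones and 71.7, 69.7, 59.2 and 73.6 in wild type. Every knockout clone lay above every wild-type clone. The means were 88.1 ± 9.69 and 68.5 ± 6.45 CPM, a log2 fold change of 0.36 (SE 0.14, adjusted p = 0.247 by edgeR). GMNN, whose product geminin holds CDT1 in check, had 159, 150.3, 159 and 176 CPM against 168, 141, 153 and 138 (log2 fold change 0.11, SE 0.13, adjusted p = 0.73 by edgeR). Those ranges overlapped, as did those of CDT1, at 150.4 to 221 CPM in knockout and 181 to 193 in wild-type clones.

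Among the tested genes of the MCM ring, MCM4, MCM5 and MCM7 had log2 fold changes above 0 and MCM3 and MCM6 below, so its subunits did not move as a block. MCM6 (chromosome 2, 135839626 to 135876426, minus strand) had 174, 151, 189 and 188 CPM in the knockout clones and 228, 240, 206 and 212 in wild type. All knockout clones were lower. The means were 176 ± 17.7 and 221 ± 15.3 CPM, a log2 fold change of -0.33 (SE 0.13, adjusted p = 0.263 by edgeR). MCM7 had 377, 493, 487 and 573 CPM in the knockout clones and 381, 406, 396 and 385 in wild type (log2 fold change 0.30, SE 0.15, adjusted p = 0.362 by edgeR). C12 was the lowest of all 8 clones for MCM7 and the other knockout clones were the highest. MCM3 had 425, 488, 348 and 389 CPM against 409, 487, 424 and 443, overlapping ranges with a log2 fold change of -0.10. MCM4 had 247 to 380 CPM in knockout and 246 to 272 in wild-type clones (log2 fold change 0.24), and MCM5 had 153 to 243 against 151 to 176 (0.27).

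Of the 8 genes that switch on the helicase, 6 had log2 fold changes above 0 and 2 below, with a median of 0.21. GINS1 (chromosome 20, 25407727 to 25452628), a subunit of the complex that joins the ring to CDC45, had 47.7, 87.9, 66.4 and 67.2 CPM in the knockout clones and 49.4, 45.6, 42.7 and 45.4 in wild type. C12 lay within the wild-type range, and C15, S04 and S36 lay above it. The means were 67.3 ± 16.4 and 45.8 ± 2.76 CPM, a log2 fold change of 0.54 (SE 0.18, adjusted p = 0.194 by edgeR). Without C12 the log2 fold change was 0.68 and the edgeR adjusted p 0.0455, and GINS1 passed along with MCM2, which the filter kept in that fit; 456 genes of the whole table then passed in place of 45.

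GINS4 resembled GINS1, with 13.6, 24.6, 16.9 and 26.2 CPM in knockout and 14.1, 14.3, 11.02 and 12.2 in wild type (log2 fold change 0.64, SE 0.23, adjusted p = 0.224 by edgeR). Its C12 value again lay among the wild-type clones. The other subunits did not share this: GINS2 had 49.6 to 72.1 CPM in knockout against 57.1 to 62.0 in wild-type clones, and GINS3 22.6 to 32.3 against 28.8 to 33.1. CDC45, the third component of the active helicase, spread most widely, with 41.6, 17.3, 64.3 and 29.7 CPM in the knockout clones against 34.3 to 41.3 in wild type. C15 and S36 lay below and C12 and S04 above every wild-type clone, and the log2 fold change was 0.09. MCM10, a scaffold for activation, had 147, 187, 135 and 190.5 CPM against 147, 131, 135 and 135 (log2 fold change 0.26). The kinase gene CDC7 had 20.6 to 38.6 CPM against 21.0 to 24.3, and its partner DBF4 had 87.3 to 110.4 against 75.2 to 96.3.

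POLA1, the catalytic subunit of polymerase alpha, had 109.5, 202, 143 and 179 CPM in the knockout clones and 118, 129, 114 and 121 in wild type. C12 was the lowest of the 8 and the other knockout clones the highest, and the log2 fold change was 0.39 (SE 0.18, adjusted p = 0.331 by edgeR). POLA2, the regulatory subunit of the same enzyme, had 44.8, 29.4, 29.3 and 33.5 CPM against 42.0, 47.0, 45.3 and 43.2. Again C12 lay with the wild-type clones, but the other knockout clones lay below them (log2 fold change -0.36, SE 0.16, adjusted p = 0.32 by edgeR). In C15, S04 and S36, then, the partner subunits lay on opposite sides of the wild-type range. PRIM1, the primase subunit that makes the RNA primer, had 63.1, 49.2, 62.2 and 51.1 CPM against 62.6, 74.2, 56.0 and 61.3. PRIM1 ranges overlapped, with a log2 fold change of -0.17. PRIM2 (7.62 to 16.0 against 8.91 to 12.9 CPM) and WDHD1, which ties the polymerase to the helicase (69.0 to 80.6 against 66.4 to 75.9), overlapped too.

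POLE, the catalytic subunit of polymerase epsilon (chromosome 12, 132623753 to 132687365, minus strand), had 113, 101, 185 and 143 CPM in the knockout clones and 107, 102, 102 and 109 in wild type. C12, S04 and S36 lay above every wild-type clone, C12 only slightly, and C15 lay just below them; over all 4 knockout clones the log2 fold change was 0.37 (SE 0.18, adjusted p = 0.357 by edgeR). POLE2, its accessory subunit (chromosome 14, 49643555 to 49688422), had 25.2, 19.3, 29.7 and 13.7 CPM against 13.0, 13.9, 14.0 and 14.5. C12, C15 and S04 were above every wild-type clone and S36 was among them (log2 fold change 0.68, SE 0.23, adjusted p = 0.201 by edgeR). POLE2 was the gene by which C12 departed most from wild type. Of the polymerase delta genes, POLD2 had 121, 137, 108 and 116 CPM against 110.5, 136, 125 and 143 (log2 fold change -0.10), POLD1 26.9 to 34.4 against 29.7 to 35.4, and POLD3 84.2 to 119 against 111 to 128. POLD3 lay below every wild-type clone in C12 and S04, most so in S04.

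PCNA, the clamp (chromosome 20, 5114953 to 5126626, minus strand), had 137, 89.5, 199 and 205 CPM in the knockout clones and 196, 171, 159 and 145 in wild type. Both C clones lay below every wild-type clone and both S clones above, so that the log2 fold change over all knockout clones was -0.08 (SE 0.24, adjusted p = 0.91 by edgeR). Without C15 it was 0.10. RFC1, the large subunit of the loader, had 544, 442, 355 and 351 CPM against 541, 554, 532 and 535 (log2 fold change -0.35, SE 0.16, adjusted p = 0.324 by edgeR). C12 lay among the wild-type clones and the other knockout clones below them. RFC2 (chromosome 7, 74231499 to 74254458, minus strand), a small loader subunit, had 25.8, 29.02, 32.1 and 38.1 CPM against 21.5, 19.1, 24.3 and 23.4. Every knockout clone was higher, with means of 31.3 ± 5.26 and 22.1 ± 2.29 CPM and a log2 fold change of 0.50 (SE 0.17, adjusted p = 0.20 by edgeR). RFC4 had 98.5, 131, 51.9 and 75.6 CPM against 92.9 to 96.9, the C clones above and the S clones below. RFC3 (84.9 to 160.0 against 96.8 to 118 CPM) and RFC5 (61.2 to 90.3 against 74.0 to 88.4) overlapped.

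Of the genes of nucleotide supply, RRM1 had 576, 338, 387 and 472 CPM in the knockout clones and 545, 590.4, 578 and 564 in wild type. C12 lay among the wild-type clones and the rest below (log2 fold change -0.36, SE 0.17, adjusted p = 0.345 by edgeR). RRM2, the small subunit of ribonucleotide reductase, whose level follows S phase (chromosome 2, 10120698 to 10131419), had 186, 196, 177 and 277 CPM against 280.03, 249.7, 282 and 255. Only S36 lay in the wild-type range; the log2 fold change was -0.35 (SE 0.16, adjusted p = 0.331 by edgeR). For each subunit 3 of 4 knockout clones lay below wild type, but the exception was a different clone. DUT had 485, 312, 556 and 353 CPM against 462, 514, 465 and 433 (log2 fold change -0.13), and TK1, thymidine kinase of the salvage route, 114 to 158 against 97.1 to 123. The row of TYMS had 0.616, 0.806, 2.59 and 2.06 CPM in the knockout clones and 0.638, 0.681, 0.754 and 1.24 in wild type (log2 fold change 0.93, SE 0.49, adjusted p = 0.391 by edgeR). Only S04 and S36 exceeded the wild-type clones.

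**Figure D3:**
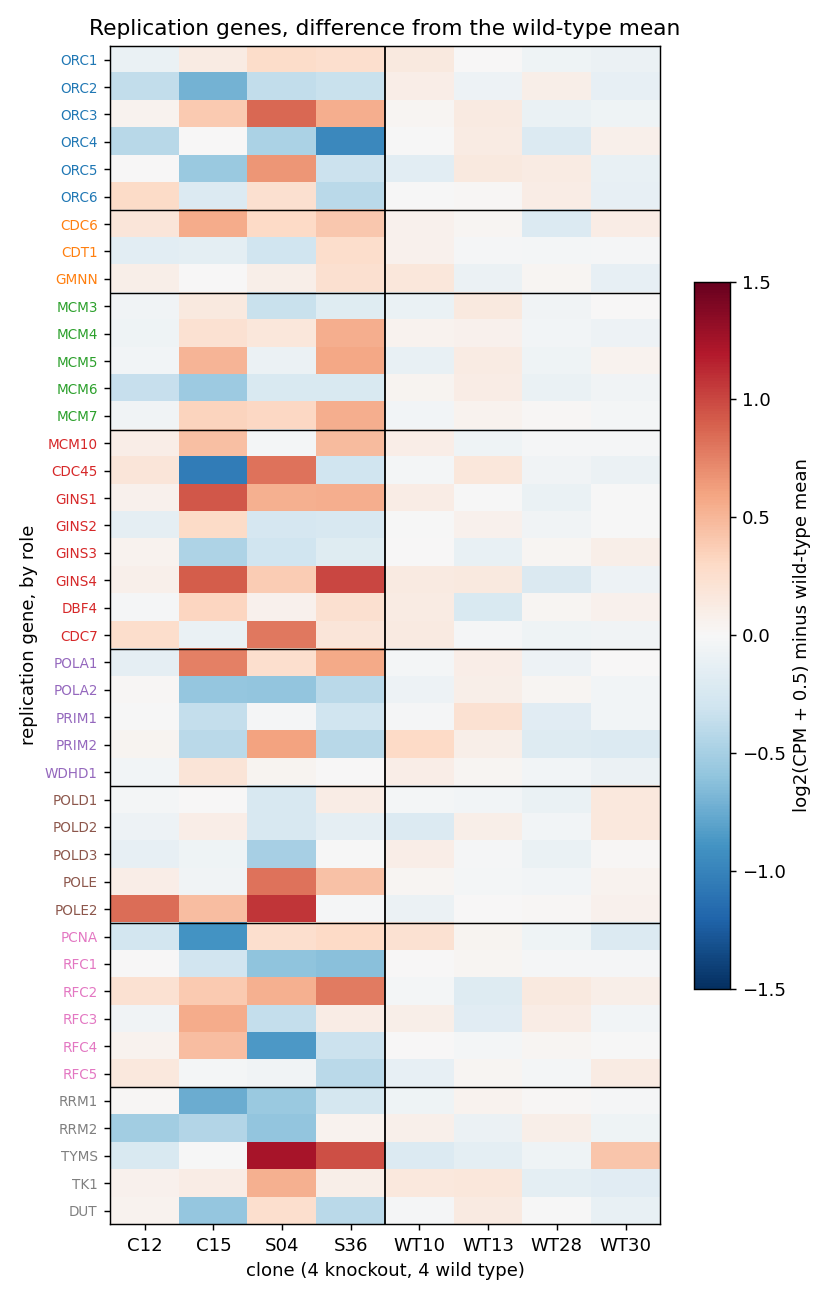
Each tested replication gene (43, by role) in each clone, as log2(CPM + 0.5) minus the mean of the 4 wild-type clones; red is higher, blue lower. C12 is nearly as pale as the wild-type clones, while C15, S04 and S36 each hold genes on both sides.

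The knockout clones differed from wild type by different amounts. The median absolute difference of the replication genes from the wild-type mean, in log2 CPM, was 0.082, 0.398, 0.336 and 0.325 in C12, C15, S04 and S36. Over all tested genes it was 0.198, 0.497, 0.462 and 0.441, so the order of the clones was that of the whole table. A wild-type clone set against its 3 fellow clones gave 0.088 to 0.113 over the replication genes and 0.147 to 0.167 over all tested genes. By this median C12 was no farther off than a wild-type clone in the replication genes, and farther off over the whole table. Single genes departed more: 2 lay beyond 0.5 in C12, POLE2 at 0.86 and RRM2 at -0.52. WT10, WT13 and WT28 had 0 such genes and WT30 had 1, the low row of TYMS. Signs balanced within each clone, with median differences of 0.0081, 0.010, 0.064 and 0.059. A difference beyond 0.3 was seen in 6 genes in C12 (1 higher, 5 lower), 25 in C15 (13 and 12), 23 in S04 (13 and 10) and 24 in S36 (13 and 11). The SD of log2 CPM over knockout clones exceeded that over wild-type clones in 40 of the 43 genes (93.0%), against 88.9% of all genes, with medians of 0.29 and 0.10. C15, the shallowest library, had under 50 counts for 6 of the tested genes.

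Pairs of knockout clones shared their pattern to different degrees. As a description over the 43 genes, which share libraries and the same wild-type mean, Pearson's r of the differences was 0.56 between C15 and S36 and 0.52 between S04 and S36. It was 0.41 between C12 and S04, 0.25 between C12 and C15, 0.14 between C15 and S04 and 0.040 between C12 and S36. Over all tested genes the same pairs gave 0.33, 0.40, 0.47, 0.14, 0.064 and 0.26.

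The 4 replication genes on chromosome 2, ORC2, ORC4, MCM6 and RRM2, all had log2 fold changes below 0, with a median of -0.39. The other 39 had a median of 0.09, with 24 above 0 and 15 below. The 948 tested genes of chromosome 2 had a median of -0.31 themselves, and the chromosome's median difference from wild type was -0.34, -0.43, -0.36 and -0.24 in C12, C15, S04 and S36, and -0.033 to 0.028 among wild-type clones. Tested genes within 10 Mb had medians of -0.27 around ORC2, -0.40 around ORC4, -0.43 around MCM6 and -0.29 around RRM2. The neighbours of each of these genes therefore lay on the same side as the gene. In single clones this did not always hold: ORC4 differed from wild type by 0.010 in C15 with its neighbours at -0.27, and RRM2 by 0.059 in S36 with its neighbours at -0.12. The part of chromosome 2 in these values was not tested.

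On chromosome 20 the picture was mixed. The chromosome's median difference was -0.35, 0.043, -0.45 and -0.15 in C12, C15, S04 and S36. PCNA differed by -0.28 in C12 where its neighbours were at -0.54, but by -0.89 in C15 where they were at 0.15 and by 0.26 in S04 where they were at -0.61. GINS1 was higher in S04 by 0.54 with its neighbours at -0.40. Across the 43 genes, Pearson's r between a gene's log2 fold change and the median of its neighbours was 0.44, and across the 39 off chromosome 2 it was 0.086. Genes on one chromosome share neighbours, and the number of neighbours ran from 24 to 354. By clone, r was 0.55, 0.045, 0.33 and 0.23 in C12, C15, S04 and S36.

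**Figure D4:**
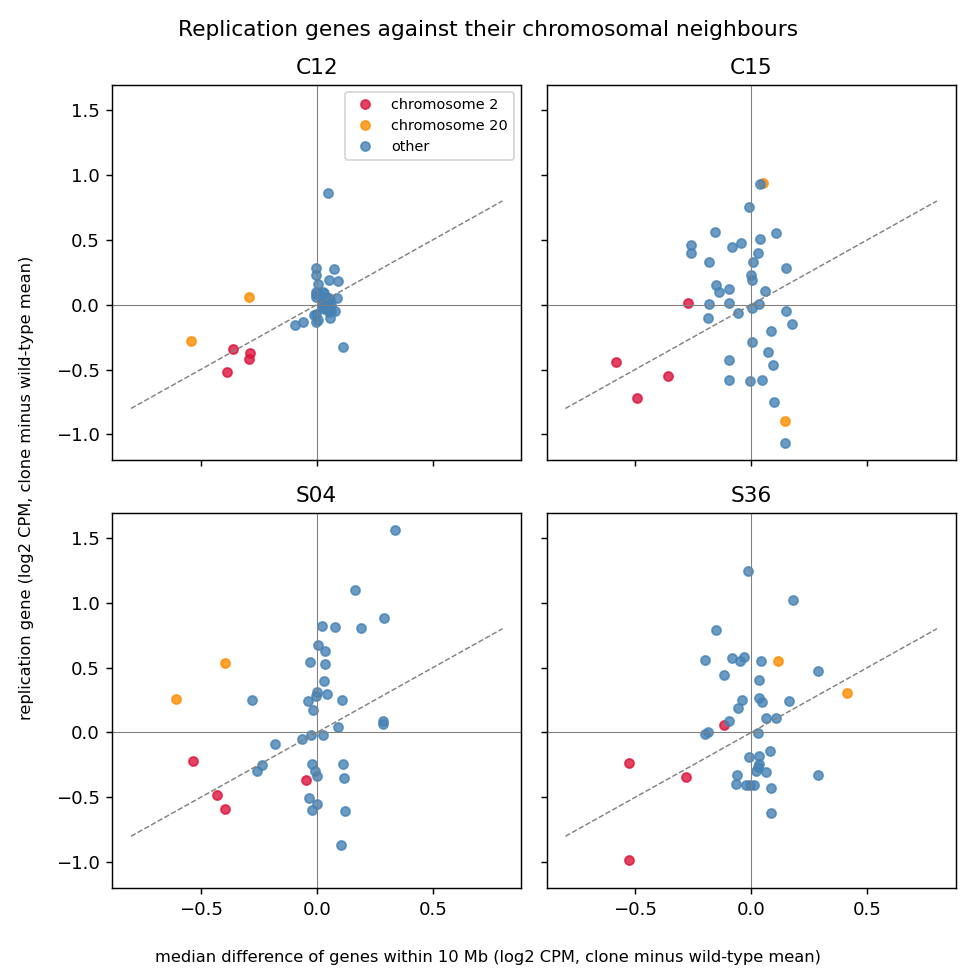
Difference of each replication gene from the wild-type mean (log2 CPM, vertical) against the median difference of tested genes within 10 Mb (horizontal), 1 panel per knockout clone, with a dashed line of equality. In C12, 5 of the 6 lowest genes are on chromosomes 2 and 20 and their neighbours are low as well (r = 0.55); in C15 the genes spread widely at any neighbour value (r = 0.045).

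Split by the letters in the clone names, the S clones gave calls among the replication genes and the C clones did not. Both comparisons use the same 4 wild-type clones. Their fit takes 1 spread per gene over all groups, so the 2 S clones are assumed to vary as the others do. The 4 knockout clones together spread more widely than wild type, with median SDs of log2 CPM of 0.29 and 0.10. With edgeR's quasi-likelihood test, 5 of 43 replication genes passed an adjusted p of 0.05 between the 2 S clones and wild type (11.6%, against 9.65% of all genes). ORC3, POLE, RFC2 and TYMS were higher (9.3%, against 4.69%) and RFC1 was lower (2.33%, against 4.96%). POLE rose by a log2 fold change of 0.64 (SE 0.14, adjusted p = 0.0234 by edgeR) and RFC1 fell by 0.61 on the log2 scale (SE 0.13, adjusted p = 0.0238 by edgeR). RFC2 rose by 0.67 (SE 0.17, adjusted p = 0.0379 by edgeR), ORC3 by 0.73 (SE 0.20, adjusted p = 0.047 by edgeR) and the low row of TYMS by 1.48 (SE 0.39, adjusted p = 0.0445 by edgeR). The median over the 43 genes was 0.15. Without any of WT10, WT13, WT28 or WT30 no replication gene passed, while 300 to 504 genes of the whole table still passed in place of 1374. The log2 fold changes stayed about as large in those 4 fits, at 0.63 to 0.66 for POLE, -0.62 to -0.61 for RFC1, 0.60 to 0.71 for RFC2, 0.70 to 0.78 for ORC3 and 1.36 to 1.74 for TYMS. The edgeR adjusted p of POLE was 0.0698 to 0.0799, that of RFC1 0.0666 to 0.0822, that of RFC2 0.0835 to 0.114, that of ORC3 0.102 to 0.147 and that of TYMS 0.0702 to 0.123. Without C12 or without C15, which are in the fit but not in this contrast, 11 of 44 passed, MCM2 among them; of all genes 14.8% and 14.4% passed. Leaving out S04 or S36 puts a single S clone against wild type, which is then assumed to vary as the other groups do. Without S04 the edgeR adjusted p was 0.0807 for POLE, 0.142 for ORC3 and 0.135 for TYMS, and without S36 it was 0.1005 for RFC2 and 0.0558 for TYMS. With DESeq2 that of TYMS was 0.0548.

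Between the 2 C clones and wild type 5 genes of the whole table passed (0.0351%) and 0 of the 43 replication genes, by edgeR, DESeq2 and limma-voom alike; 7 had an unadjusted edgeR p under 0.05 (16.3%, against 7.66% of all genes). Without C12, edgeR called GINS1 and 174 genes of the whole table in place of 5; that fit sets C15 alone, the shallowest library, against wild type and takes the spread from the other groups. Directly between C and S clones, 51 genes passed with edgeR (0.358%) and 0 of the 43, with 5 at an unadjusted p under 0.05 (11.6%, against 17.1% of all genes). The 51 became 0 without any single wild-type clone, 14 with RLE scaling and 20 with upper quartile scaling. It also rose, to 762 without the low-count filter, 651 with DESeq2, 89 with limma-voom and 63 in thinned counts. PCNA was lower in the C clones by a log2 difference of -0.82 (SE 0.22, adjusted p = 0.116 by edgeR) and RFC4 higher by 0.84 (SE 0.21, adjusted p = 0.097 by edgeR). DESeq2 called both, with adjusted p = 0.0329 and 0.0194; these 2 are 4.65% of the replication genes, and DESeq2 called 651 of all genes (4.57%). For PCNA and RFC4 the wild-type clones lay between the C and the S clones.

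**Figure D5:**
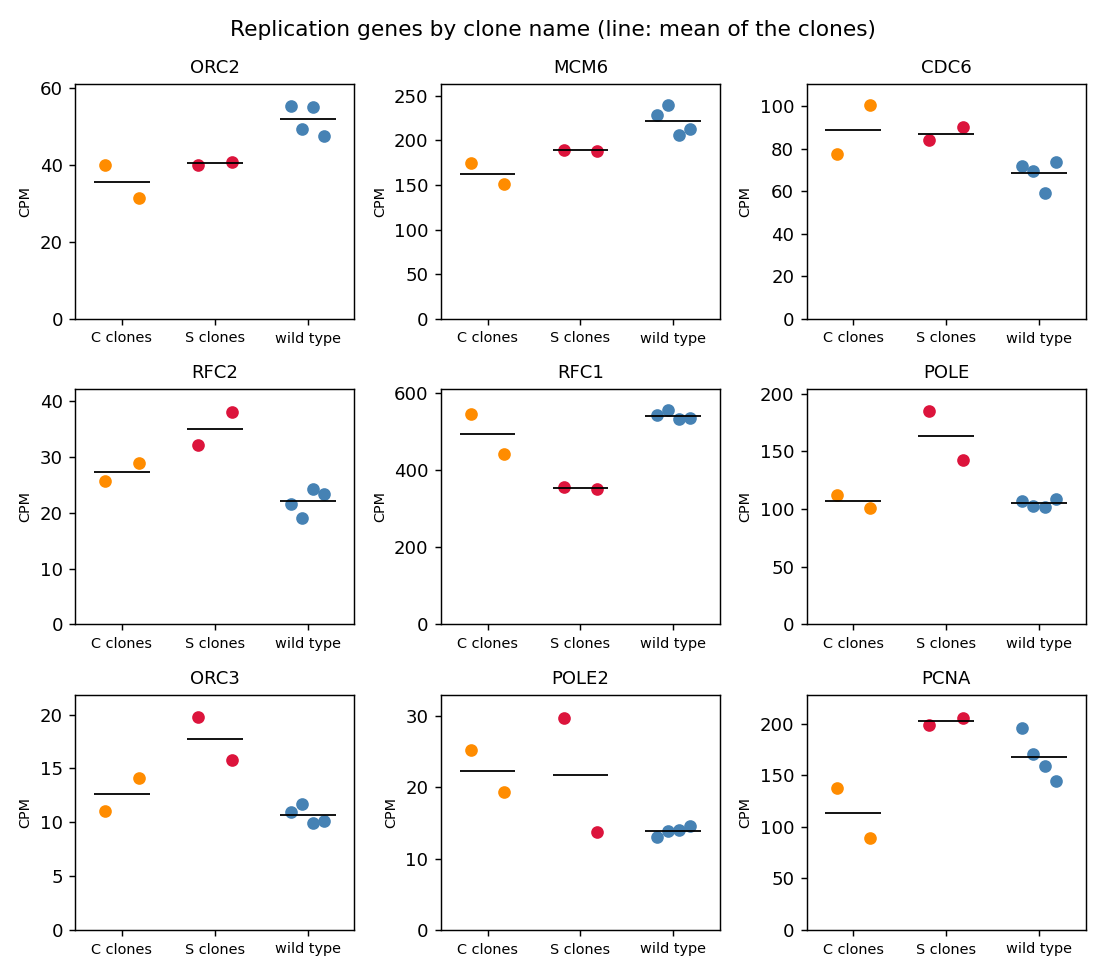
CPM of 9 replication genes in the C, S and wild-type clones, 1 point per clone, with a line at each mean. ORC2 and MCM6 are below, and CDC6 and RFC2 above, wild type in all knockout clones; RFC1, POLE and ORC3 depart most in the S clones, and PCNA lies below wild type in the C and above it in the S clones.

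Of 62 further genes of replication and its control, listed by function, 56 were tested. Between knockout and wild type edgeR called 0, limma-voom 0 and DESeq2 2 (3.57%, against 3.66% of all genes). At an unadjusted edgeR p under 0.05 there were 9 (16.1%, against 15.5%). Log2 fold changes were above 0 in 27 and below 0 in 29, with a median of -0.0095. Medians by list were 0.22 for origin firing and fork protection, -0.13 for Okazaki fragment and single strand factors, 0.06 for other clamp loaders, -0.13 for chromatin assembly, 0.11 for other nucleotide metabolism and 0.16 for E2F and RB regulators. MTBP, which helps fire origins, and ASF1A, a histone chaperone, were higher in every knockout clone (3.57% of the 56, against 4.44% of all genes), with log2 fold changes of 0.64 and 0.42. RNASEH2C, DTYMK, E2F6 and TFDP2 were lower in every one (7.14%, against 5.62%); DTYMK (-0.63) and E2F6 (-0.67) lie on chromosome 2.

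In the S clones 9 of these 56 passed with edgeR (16.1%, against 9.65% of all genes), 4 higher (7.14%, against 4.69%) and 5 lower (8.93%, against 4.96%). Without WT10 only 1 passed, and without WT13, WT28 or WT30 none did. The repressors E2F7 (log2 fold change 1.01, adjusted p = 0.0226 by edgeR) and E2F8 (0.83), the firing factor TICRR (0.69) and the nuclease DNA2 (0.84) rose. RECQL4, a helicase with a role in initiation (-0.96, adjusted p = 0.0195 by edgeR), CLSPN, the checkpoint adaptor claspin (-0.71), the histone chaperone NASP (-0.63), E2F6 (-0.72) and TFDP2, a partner of E2F factors (-0.54), fell. RECQL4 was also the only one of the 56 called between C and S clones, higher in the C clones by 1.35 (SE 0.22, adjusted p = 0.049 by edgeR). Its log2 difference was 1.34 to 1.35 without any 1 wild-type clone, with an edgeR adjusted p of 0.125 to 0.145. With RLE scaling the adjusted p was 0.0511, with upper quartile scaling 0.0523, with a filter of 1 CPM 0.0504, without C15 0.0658 and without S04 0.0659. For comparison, 18 genes of G2 and mitosis had a median log2 fold change of -0.05 between knockout and wild type, with 8 above 0 and 10 below. Of these, edgeR called 0, limma-voom 0 and DESeq2 1 (5.56%, against 3.66% of all genes). At an unadjusted edgeR p under 0.05 there were 2 (11.1%, against 15.5%). In the S clones 4 of the 18 passed with edgeR (22.2%, against 9.65%), and 0 to 2 without 1 wild-type clone. KIF11, a spindle motor, was higher by 0.83 and AURKA (-1.18), CENPE (-0.66) and TOP2A (-0.59) were lower.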

How the data were processed

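Raw counts per gene were deposited by the authors in a single table covering the 8 clones, and were used as they stand. The submitters' processing notes name Subread, SAMtools, TopHat2 and FastQC and the build hg38, without versions. Neither annotation nor strand setting is stated in the sources at hand. Without a stated strand, reads of overlapping genes cannot be assigned: 18 of the 44 genes share exon bases with another gene (5 with one on the same strand, 14 with one on the other), and 8 have named pseudogene copies.

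Positions and principal transcript lengths came from GENCODE 29 (57038 symbols matched). Clones were compared with edgeR 4.0.16 in R 4.3.3 (filterByExpr, TMM, quasi-likelihood test, Benjamini-Hochberg adjustment over 14243 genes, threshold 0.05). The procedure was tried on simulated counts in which both groups had the same spread. That simulation therefore does not check the tests under the wider spread seen in the knockout clones. The knockout clones were fitted as 1 group, and again split into C and S clones by name. SE is the fold change divided by the square root of F. Values per clone were checked with exact permutation tests of log2 CPM. Differences by clone use log2 CPM with a prior count of 2. Alternatives used DESeq2 1.42.0, limma 3.58.1 (voom), other scalings and filters, thinned counts and each clone left out. Counts of any 2 clones differed by more than sampling noise (chi-square per degree of freedom at least 13.9). The labels do not say how the clones were cultured, so p-values measure only the spread between these clones.

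Values in every clone are given for genes past the threshold in a comparison, the 2 with the smallest p of each role, those on chromosome 2, and the highest per length of each role; CDC45 and RFC4 were added after their values were seen, and MCM2 for its low row. Other genes are named by smallest p, by a call or by clones that do not overlap. The genes and lists were chosen with earlier results of these data known.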

Additional observations from a re-analysis of the deposited data

Results flagged for a closer look

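ORC2 in C15 lay far from the other knockout clones. Its log2(CPM + 0.5) was 5.00, against 5.34 to 5.37 in C12, S04 and S36, so the gap to the nearest clone was 0.92 of the group's range. It was the only such case among 50 groups of 4 clones checked, where chance gives about 2.5. Without C15 ORC2 was still lower in every remaining knockout clone.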

How the results depend on the processing

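Between knockout and wild type, 373 log2 fold changes of the 25 genes given clone by clone were compared with the main fit. Of these, 366 kept direction and side of the threshold, 1 became a call (GINS1 without C12) and 6 changed sign. No replication gene was called in the main fit, so keeping the side meant staying uncalled. The calls in the S clones are not in this tally. The changes of sign were in ORC6, POLD2 and PCNA. ORC6 was -0.031 without the low-count filter and -0.097 to 0.14 with 1 clone left out. POLD2 was 0.0084 in thinned counts, and PCNA was -0.23 to 0.10 with 1 clone left out. The 45 genes called over the whole table became 581 without the filter, 521 with DESeq2, 94 with limma-voom, 1 in thinned counts, 2211 with the S clones alone and 6 with the C clones alone, and 3 to 456 with 1 clone left out (456 without C12, 114 without C15, 7 without S04, 20 without S36, 3 without WT10, WT13 or WT30 and 5 without WT28). Of the replication genes, none called between knockout and wild type became 1 without the filter (MCM2), 11 with the S clones alone and 0 to 2 with 1 clone left out (MCM2 and GINS1 without C12). The 5 called in the S clones became 0 with any 1 wild-type clone left out. The 0 in the C clones stayed 0 in the same way. Fits by letter without 1 knockout clone leave a single C or S clone. Their counts differed in some cases and are not tallied here. The 0 between C and S clones became 3 without the filter (MCM2, PCNA and RFC4, 6.82%, against 2.43% of all genes). It became 2 with DESeq2 (4.65%, against 4.57%) and stayed 0 with 1 wild-type clone left out. The 0 was not kept in every fit without 1 knockout clone, each of which leaves a single C or S clone. The median log2 fold change of 0.048 became -0.0020 without the filter, 0.14 with the S clones alone, 0.014 after subtracting neighbours within 10 Mb (chosen after seeing the data) and 0.013 to 0.095 with 1 clone left out. The cause of these changes was not tested; the S-only and C-only fits use fewer clones. No paired analysis was possible because the clone names share no replicate numbers between groups. Depth limits the low rows most: in C15 TYMS rested on 2 counts and the next lowest tested gene on 19.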

Other observations

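Without the filter on low counts, the row of MCM2 was higher over the knockout clones together by 2.73 on the log2 scale (edgeR adjusted p = 0.00492). In the S clones it was higher by 3.36 (edgeR adjusted p = 3.26e-07). The C clones did not share this rise, at 0.32 (edgeR adjusted p = 0.976), and C12, with 1 count, had the lowest CPM of all 8 clones. An exact permutation test of knockout against wild type gave p = 0.143 for MCM2. The adjusted p in the S clones depended on the fit. With the filter and without the C clones it was 0.00745 by edgeR, at 3.41 on the log2 scale. GAPDH, the other low row looked up, was higher in the S clones by 1.40 (edgeR adjusted p = 0.052). The mean of the standardised replication genes ran only from -0.203 in WT28 to 0.179 in S36. The genes that followed it best over the 8 clones (Pearson's r, a description) were ANKH at 0.946, SLC25A27 at 0.923 and FLJ20021 at 0.914. The unnamed ENSG00000270017 was at 0.933 and ENSG00000261159 at 0.911. They were picked as the highest values of a search over many genes with only 8 clones. Such high values can arise by picking alone, so no link to the replication genes is drawn.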
